A study of Rattus norvegicus with 6 samples.

Results

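Aldo-keto reductases are enzymes that use NADPH to reduce aldehydes and ketones to alcohols. In liver they act on reactive aldehydes, sugars, steroids, bile acid precursors and foreign carbonyl compounds, and the genes are named by subfamily (1a, 1b, 1c, 1d and 7a here). Several members are known to be induced through NRF2, a regulator that responds to oxidants and electrophiles. The 10 rat genes described here were found as the probes whose RefSeq accession belongs to Akr1a1, Akr1b1, Akr1b8, Akr1b10, Akr1c1, Akr1c2, Akr1c14, Akr1d1, Akr7a2 or Akr7a3. They had 14 probes among the 61657 on the array that are not controls, and 13 of the 14 were bright enough to be tested. All 10 genes had a tested probe, among 11344 named genes with one.

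Livers of 6 male Sprague-Dawley rats, bought at 5 weeks of age, were profiled with 1-colour Agilent arrays, each rat on its own array. Treated rats (n = 3) were given ADBAQ (1-amino-2,4-dibromoanthraquinone, used in making anthraquinone dyes) at 1000 mg/kg/day, and vehicle rats (n = 3) received the vehicle. One label names the vehicle as purified water and another as corn oil, and the time is 28 days in some labels and 9 weeks in another. The ADBAQ arrays shared a slide and a scan day, and the vehicle arrays shared a different slide and a different scan day, so slide, scan day and treatment cannot be told apart in any difference below. Values are log2 levels, in which each probe's processed signal is divided by the 75th percentile of its array before the log is taken, so a level of 0 is the signal at that percentile. Levels of different probes are not compared, because probes differ in brightness for the same amount of RNA. Fold changes are ADBAQ minus vehicle on the log2 scale, ± SE, with n = 3 rats per group. They come from limma, and p is adjusted by Benjamini-Hochberg over all 38695 probes tested, with a threshold of 0.05.

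Between 62.1% and 65.3% of probes were well above background on an array, and no spot among them was saturated. The tissue label held: Alb, the albumin gene, had levels between 9.57 and 9.74 in ADBAQ livers and between 9.95 and 10.06 in vehicle livers. Of 9 hepatocyte markers 6 fell, and their summed level (signal over the array's 75th percentile, linear) was 4603 to 4939 in ADBAQ livers and 6002 to 6535 in vehicle livers. Of 7 measured cholangiocyte markers 3 rose and 1 fell, with summed levels of 2.81 to 4.50 in ADBAQ livers and 1.78 to 2.13 in vehicle livers. All 4 measured erythroid markers rose, with summed levels of 415 to 556 in ADBAQ livers and 205 to 286 in vehicle livers. Such a sum mostly follows its brightest probe and does not describe a marker set evenly. That probe was Hbb in the erythroid list (mean log2 level 8.91 in ADBAQ and 7.96 in vehicle livers) and Epcam in the cholangiocyte list. Over all named genes tested, 9.05% passed as higher and 11.3% as lower in ADBAQ livers. In lists for macrophages, stellate cells, endothelium, lymphocytes and gut epithelium at most 1 member passed the test. In whole tissue, fewer cells of a type and less RNA per cell cannot be told apart, and the part of these markers in the results below was not tested.

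The comparison of ADBAQ with vehicle split the family. Akr1b8, Akr1b10, Akr7a2 and Akr7a3 rose, Akr1c1 and Akr1c2 fell, and Akr1a1, Akr1b1, Akr1c14 and Akr1d1 did not pass the test. Over the whole array 20.3% of named genes passed, 9.05% higher and 11.3% lower in ADBAQ livers. At least a 2-fold change with an adjusted p under 0.05 was reached by 5.58% of named genes, and by Akr1b8, Akr1b10, Akr1c1, Akr1c2 and Akr7a3 among the 10. The median log2 fold change was 0.42 over the 10 genes and -0.04 over all genes tested. The groups of 3 rats did not overlap for 7 of the 10 genes, against 46.3% of all genes. Akr1b10 is in each of these counts, but no vehicle liver was well above background for it. It was tested because of the ADBAQ arrays alone, and the size of its change is not measured. Relative to the spike-in controls, every log2 fold change was 0.76 higher and the median of all genes was 0.72. On that scale Akr1c1 (-2.68) and Akr1c2 (-1.98) were still lower and the other 8 members were called higher, as were 8937 of the 11344 genes, so changes are given relative to the 75th percentile.

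**Figure D1:**
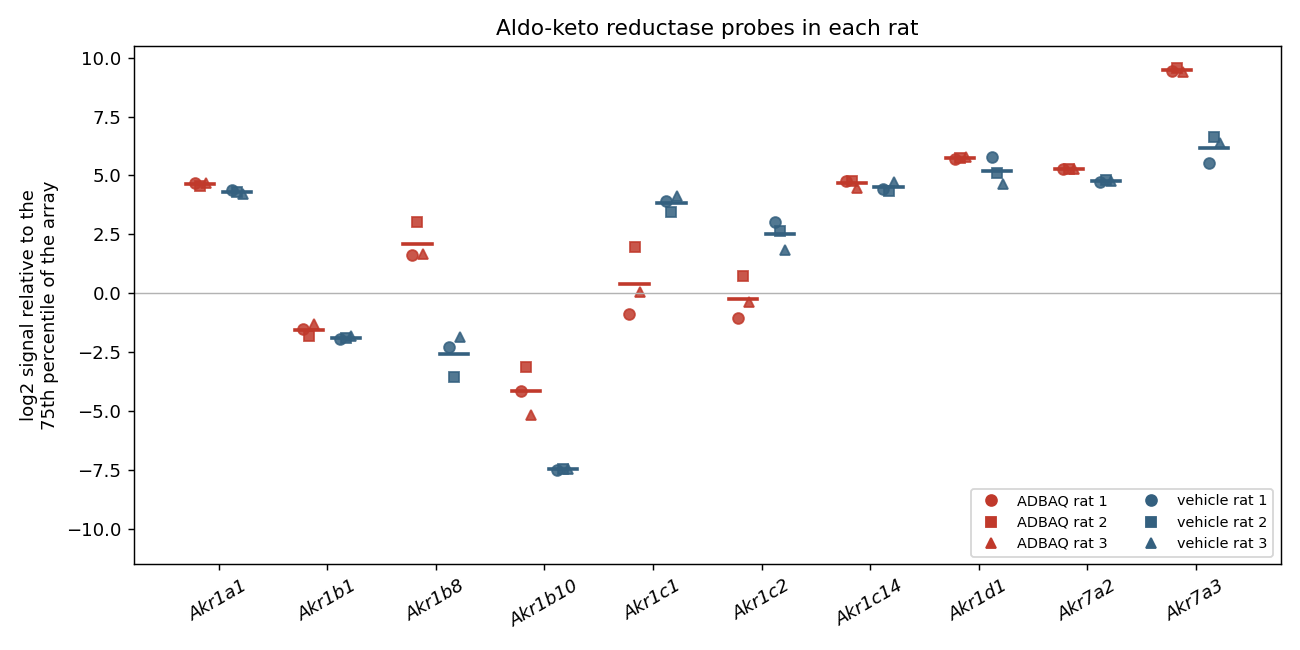
Log2 level of the brightest probe of each Akr gene in each rat (y axis, log2 signal relative to the array's 75th percentile), with ADBAQ rats in red left of vehicle rats in blue and a bar at each group's mean (n = 3). The groups lie far apart for Akr1b8 and Akr7a3 (ADBAQ higher) and for Akr1c1 and Akr1c2 (ADBAQ lower). They also lie apart as drawn for Akr1b10, whose vehicle points were not well above background, so that gap is not a measured size. Heights are to be compared within a gene only.

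Akr7a3, the rat aflatoxin aldehyde reductase (also listed as Afar), reduces the dialdehyde formed from aflatoxin and is a known inducible enzyme of rat liver. Its log2 levels were 9.45, 9.57 and 9.41 in the ADBAQ livers and 5.52, 6.63 and 6.39 in the vehicle livers. The 3 ADBAQ rats lay within 0.16 of each other and far above the vehicle rats, which were spread over 1.11 with rat 1 lowest. Akr7a3 rose by 3.30 ± 0.28, a 9.86-fold change (adjusted p = 0.00300), and it passed with each array left out (2.97 to 3.53). Its processed signal was 405139 to 450714 in ADBAQ livers and 20814 to 45586 in vehicle livers, with no saturated spot.

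Akr7a2, the other gene of the 7a subfamily, encodes an aldehyde reductase known for reducing succinic semialdehyde. Its levels were 5.27, 5.27 and 5.28 in ADBAQ livers and 4.73, 4.80 and 4.78 in vehicle livers. The shift of Akr7a2 was small and even, with a range of 0.01 among ADBAQ rats and 0.07 among vehicle rats. It rose by 0.50 ± 0.08, a 1.42-fold change (adjusted p = 0.0119), and it passed with each array left out (0.48 to 0.52). The adjacent genes Akr7a2 and Akr7a3 thus differed in the size of their rise. The level of Akr7a2 relative to Akr7a3 fell by 2.80 ± 0.32 on the log2 scale, with no overlap between groups. An exact two-sided permutation test of that difference gave p = 0.1, the smallest value that 3 against 3 rats allow, and an adjusted p = 0.117 over the 7 pairs compared within subfamilies.

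Akr1b8 is a rodent relative of aldose reductase that reduces aliphatic aldehydes. Its levels were 1.61, 3.02 and 1.66 in ADBAQ livers and -2.31, -3.58 and -1.85 in vehicle livers. Rat 2 was the highest of the ADBAQ group and vehicle rat 2 the lowest of its group, and the groups lay far apart. Akr1b8 rose by 4.68 ± 0.56, a 25.6-fold change (adjusted p = 0.00653), the seventh largest log2 fold change of the 11344 genes as measured. It passed with each array left out (4.18 to 5.04).

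Akr1b10 shares its name with a human enzyme that reduces retinal and other aldehydes. Its brighter probe had levels of -4.17, -3.14 and -5.17 in ADBAQ livers and -7.50, -7.45 and -7.49 in vehicle livers. It was well above background in every ADBAQ liver and in no vehicle liver. It was thus tested because of the ADBAQ arrays alone, and the size of its change is not measured. Against the lowest detected signal of the vehicle arrays, the mean of the ADBAQ rats was 2.03-fold higher. Probes that were not detected can lie above that signal, so this ratio is not a strict lower limit. The adjusted p of 0.00976 in limma belongs to the measured difference from background values in the vehicle livers, and not to this ratio. With normexp background correction the change was 0.38 and did not pass (adjusted p = 0.135). A second probe was above background in 2 ADBAQ livers and in no vehicle liver and was not tested. Its levels were -5.19, -4.73 and -7.74 in ADBAQ livers and between -7.54 and -7.47 in vehicle livers, so the third ADBAQ rat lay below the vehicle rats on it. Against the lowest detected signal of the vehicle arrays this probe gave a ratio of 0.61.

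Akr1b1, aldose reductase, turns glucose into sorbitol in the polyol pathway. Its levels were -1.54, -1.82 and -1.32 in ADBAQ livers and -1.96, -1.92 and -1.81 in vehicle livers. The groups overlapped on this probe, and its difference of 0.34 ± 0.14 did not pass (adjusted p = 0.146). The second probe gave 0.63 ± 0.31 (adjusted p = 0.195), with groups that did not overlap. The level of Akr1b1 relative to its neighbour Akr1b8 fell by 4.34 ± 0.77 on the log2 scale with no overlap between groups (exact permutation p = 0.1, the smallest possible; adjusted p = 0.117). The differences in change that involve Akr1b10, -2.98 ± 0.73 for Akr1b1 minus Akr1b10 and 1.36 ± 0.61 for Akr1b8 minus Akr1b10, rest on its dim vehicle values (exact permutation p = 0.1 and adjusted p = 0.117 for each). With normexp background correction the Akr1b1 minus Akr1b10 difference was -0.22 (adjusted p = 0.9 in the exact permutation test). In the RefSeq gene table (assembly GRCr8) Akr1b1, Akr1b8, Akr1b10 and Akr1b7 follow each other with no protein-coding gene between them. Akr1b7, which is not among the 10 genes, had levels of 0.72, 0.15 and -2.91 in ADBAQ livers and -7.36, -2.69 and -5.70 in vehicle livers. It was well above background in 1 of the 3 vehicle livers, so its measured difference, which did not pass (adjusted p = 0.0697), is against values that are partly background.

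**Figure D2:**
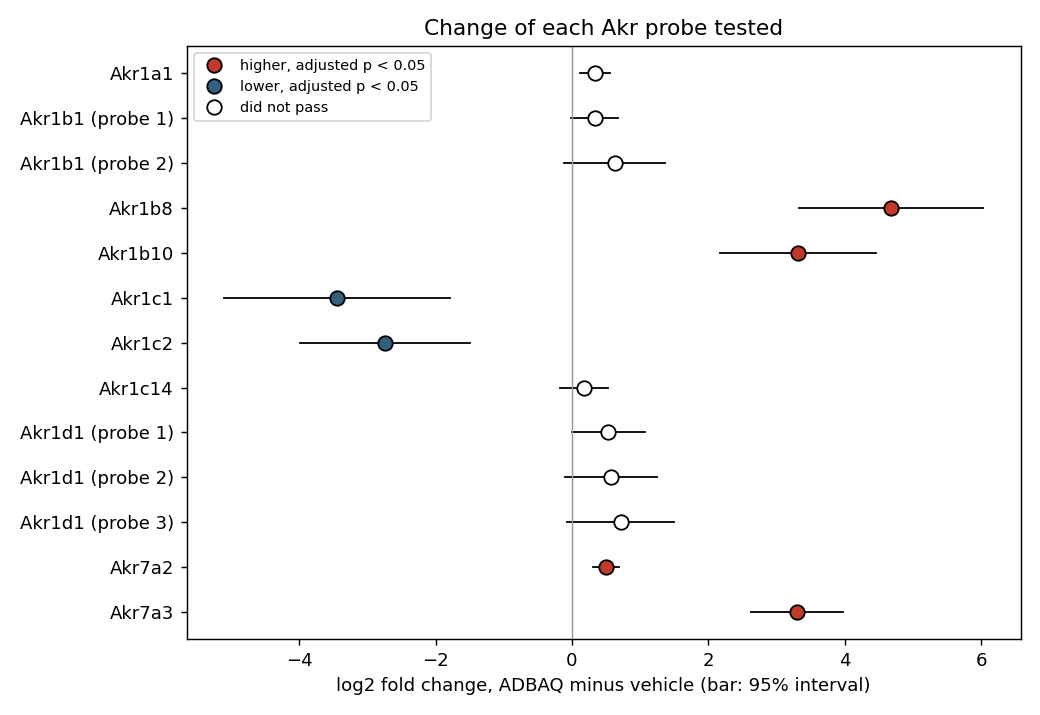
Log2 fold change, ADBAQ minus vehicle (x axis), of the 13 Akr probes tested (y axis), with 95% intervals from limma. Filled points passed the test (red higher, blue lower in ADBAQ livers), and the probes of Akr1b1 and Akr1d1, which have several each, all lie right of 0 without passing; the point of Akr1b10 rests on dim vehicle values.

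Akr1c1, listed in RefSeq also as Akr1c6 and Hsd17b5, belongs to the hydroxysteroid dehydrogenase branch of the family. Its log2 levels were -0.87, 1.96 and 0.06 in ADBAQ livers and 3.93, 3.43 and 4.12 in vehicle livers. Every ADBAQ rat was below every vehicle rat, and ADBAQ rat 2 was the highest of its group. Akr1c1 fell by 3.44 ± 0.69 on the log2 scale, a 10.9-fold change (adjusted p = 0.0222), and 15 of the 11344 genes had a larger fall. The call was kept without ADBAQ rat 2 (adjusted p = 0.00975) and lost without any 1 of the other 5 arrays, where the highest adjusted p was 0.0701 (without ADBAQ rat 3), with falls of 2.81 to 4.23 over the 6 fits.

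Akr1c2, listed also as Akr1c21, is the protein-coding gene next to Akr1c1. Its levels were -1.08, 0.74 and -0.39 in ADBAQ livers and 3.03, 2.65 and 1.81 in vehicle livers. The ADBAQ rats stood in the same order as for Akr1c1, with rat 2 highest and rat 1 lowest. Akr1c2 fell by 2.74 ± 0.51 on the log2 scale, a 6.68-fold change (adjusted p = 0.0190). The call was lost without vehicle rat 1 or 2 or ADBAQ rat 1 or 3 (highest adjusted p = 0.0615, without ADBAQ rat 3). The changes of Akr1c1 and Akr1c2 differed by -0.70 ± 0.58, with groups that overlapped (exact permutation p = 0.3).

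Akr1c14, formerly Akr1c9, is the rat liver 3-alpha-hydroxysteroid dehydrogenase, which also oxidises dihydrodiols of aromatic hydrocarbons. Its levels were 4.76, 4.77 and 4.46 in ADBAQ livers and 4.42, 4.32 and 4.73 in vehicle livers. The groups overlapped, and the difference of 0.17 ± 0.15 did not pass (adjusted p = 0.434; 95% interval -0.18 to 0.53). The level of Akr1c1 relative to Akr1c14 fell by 3.61 ± 0.83 on the log2 scale and that of Akr1c2 by 2.91 ± 0.70, each with no overlap between groups (exact permutation p = 0.1, adjusted p = 0.117).

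The other Akr1c genes measured were Akr1c3, Akr1c12, Akr1c12l1, Akr1c13, Akr1c15 and Akr1c19. Among them Akr1c12 passed the test, with levels of 6.48, 6.91 and 6.64 in ADBAQ livers and 7.45, 7.34 and 7.26 in vehicle livers. It fell by 0.67 ± 0.13 on the log2 scale (adjusted p = 0.0217), a value of 0.09 when scaled to the spike-in controls, and its second probe passed in the same direction. The call was kept with 2 of the 6 arrays left out one at a time (highest adjusted p = 0.0685). Akr1c13 was spread widely in both groups, with 3.61, 5.57 and 3.49 in ADBAQ livers and 5.14, 4.24 and 3.54 in vehicle livers.

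ADBAQ rat 2 was the highest of the ADBAQ group for 8 of the 9 Akr1c genes measured, against 32.4% of all genes tested. For Akr1c14 rats 1 and 2 were nearly level (4.76 and 4.77), and on the second tested probe of Akr1c3 rat 3 was the highest (-1.80, -1.67 and -1.61 in ADBAQ rats 1 to 3). This count was made after the values were seen, and the 9 genes were read on the same arrays. The same rat was also the highest for Akr1b8, Akr1b10 and Akr7a3, and for 6 of the 10 members in all. The Akr1c genes are close copies of one another, as are Akr1b7, Akr1b8 and Akr1b10, and a probe of 1 of them may detect RNA of another. The sequences of the probes were not examined here, so the assignment of a change to 1 gene of a cluster is uncertain.

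**Figure D3:**
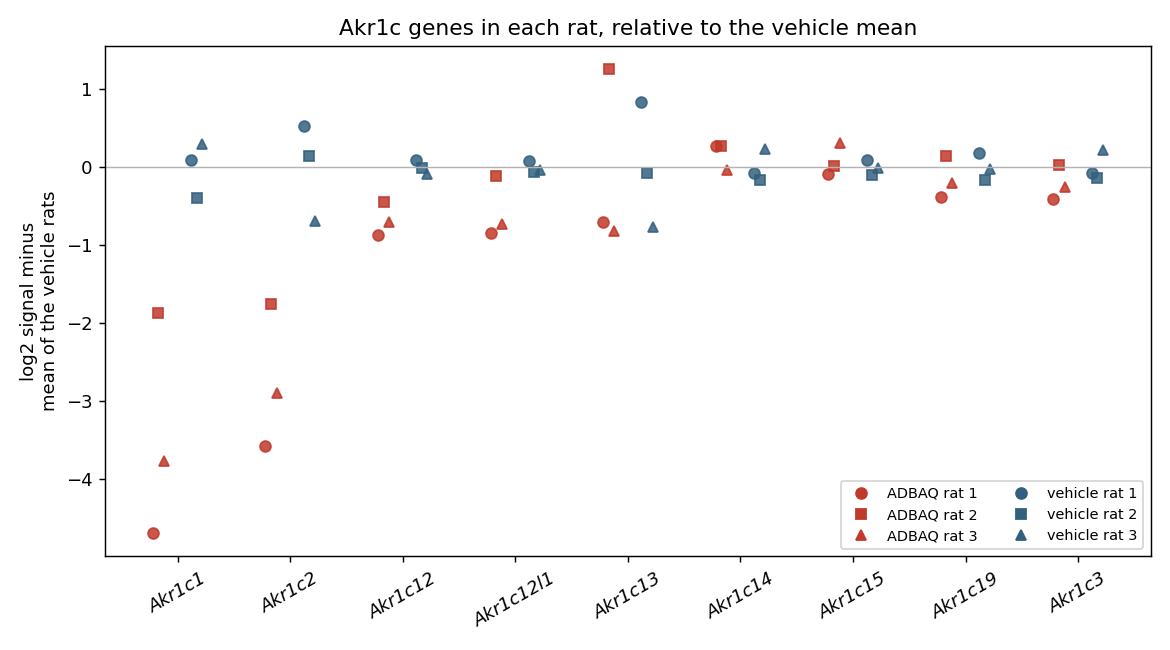
Log2 level of the 9 Akr1c genes measured in each rat, minus the mean of the vehicle rats (y axis), with ADBAQ rats in red left of vehicle rats in blue. The falls of Akr1c1 and Akr1c2 stand apart from the other Akr1c genes, and ADBAQ rat 2 (square) is the highest red point for each gene but Akr1c15.

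Akr1d1 encodes the steroid 5-beta-reductase, an enzyme of bile acid synthesis. Its brightest probe had levels of 5.70, 5.73 and 5.78 in ADBAQ livers and 5.79, 5.09 and 4.63 in vehicle livers. The ADBAQ rats lay within 0.08 of each other and the vehicle rats were spread over 1.15. The difference of 0.57 ± 0.28 did not pass (adjusted p = 0.195), and the other probes gave 0.53 and 0.71 with adjusted p of 0.140 and 0.173. The change of Akr1d1 passed in 1 of the 6 fits with an array left out: it was 0.88 (adjusted p = 0.0305) without vehicle rat 1, which was as high as the ADBAQ rats, and 0.30 (adjusted p = 0.388) without vehicle rat 3.

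Akr1a1, aldehyde reductase, makes L-gulonate from glucuronate on the route to vitamin C in rodents. Its levels were 4.68, 4.54 and 4.66 in ADBAQ livers and 4.36, 4.31 and 4.20 in vehicle livers. Every ADBAQ rat was above every vehicle rat, by a small margin. The difference of 0.34 ± 0.09 lay at the threshold (adjusted p = 0.0508). It passed with quantile normalization (adjusted p = 0.0300), with normexp background correction (0.0144) and with trend and robust variances (0.0233), and not with any 1 array left out (0.0731 to 0.141).

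Promoters of 7 of the 10 genes stood in the RefSeq promoter table for GRCr8, each 250 bases before to 50 bases after the gene's start. Those of the 5 members that passed the test and are in the table are shown, since these are the called genes for which a window was at hand: Akr1b8 with its neighbour Akr1b10, Akr7a2 with its neighbour Akr7a3, and Akr1c2. Both strands were searched for GCGTG, the core of the xenobiotic response element bound by the aryl hydrocarbon receptor (AhR), and for TGACNNNGC, the core of the antioxidant response element bound by NRF2. The second pattern had no match in these windows, so none overlap, and capitals mark the matches of GCGTG.
Akr1b8 (GRCr8 chr4:63964171-63964470, plus strand): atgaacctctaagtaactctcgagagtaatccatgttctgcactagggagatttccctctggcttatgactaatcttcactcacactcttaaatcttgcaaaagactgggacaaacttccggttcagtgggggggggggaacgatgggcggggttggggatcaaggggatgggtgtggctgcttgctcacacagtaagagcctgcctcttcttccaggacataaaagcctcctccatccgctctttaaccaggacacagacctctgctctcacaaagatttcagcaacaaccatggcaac
Akr1b10 (GRCr8 chr4:64005382-64005681, plus strand): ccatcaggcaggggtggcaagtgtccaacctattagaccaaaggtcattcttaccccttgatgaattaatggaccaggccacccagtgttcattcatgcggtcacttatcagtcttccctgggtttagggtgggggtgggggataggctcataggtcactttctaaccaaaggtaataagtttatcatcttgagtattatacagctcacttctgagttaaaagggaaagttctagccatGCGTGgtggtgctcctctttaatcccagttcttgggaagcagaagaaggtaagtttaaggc
Akr7a2 (GRCr8 chr5:156835339-156835638, plus strand): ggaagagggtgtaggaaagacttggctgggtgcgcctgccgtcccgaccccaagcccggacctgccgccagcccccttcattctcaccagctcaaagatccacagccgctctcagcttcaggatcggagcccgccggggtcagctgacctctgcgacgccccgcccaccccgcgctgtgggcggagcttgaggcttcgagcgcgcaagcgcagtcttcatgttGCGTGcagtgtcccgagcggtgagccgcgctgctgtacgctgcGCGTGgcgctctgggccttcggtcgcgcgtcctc
Akr7a3 (GRCr8 chr5:156876471-156876770, plus strand): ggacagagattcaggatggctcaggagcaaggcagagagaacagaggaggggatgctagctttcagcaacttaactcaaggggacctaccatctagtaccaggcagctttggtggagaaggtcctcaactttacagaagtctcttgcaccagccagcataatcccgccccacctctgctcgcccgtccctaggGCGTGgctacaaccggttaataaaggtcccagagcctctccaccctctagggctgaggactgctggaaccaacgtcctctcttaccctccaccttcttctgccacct
Akr1c2 (GRCr8 chr17:70717831-70718130, minus strand): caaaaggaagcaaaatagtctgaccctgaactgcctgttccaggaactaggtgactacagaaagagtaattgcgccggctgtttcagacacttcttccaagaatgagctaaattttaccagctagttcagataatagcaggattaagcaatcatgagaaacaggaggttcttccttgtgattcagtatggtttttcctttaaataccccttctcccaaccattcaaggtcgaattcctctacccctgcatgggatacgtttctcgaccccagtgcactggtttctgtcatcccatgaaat
GCGTG stood once in Akr1b10 (11 bases before the start) and once in Akr7a3 (57 bases before it). It stood at 2 places in Akr7a2, 27 bases before and 16 bases after the start. It matched in 3 of the 7 members' windows and in 29.7% of the 33469 promoter windows of the table. TGACNNNGC matched in 0 of the 7 windows and in 12.1% of all windows, which says only that these letters are not in these stretches. The promoter of Akr7a2 was 68.7% G and C and that of its neighbour Akr7a3 55.7%.

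Among NRF2 target genes outside the family, 23 of the 31 measured rose and none fell (median log2 fold change 1.17, against -0.04 over all genes; 20.3% of genes passed over the array). Abcc3, an efflux pump gene, rose by 3.95 ± 0.34 (adjusted p = 0.00300), Gstp1, the placental glutathione transferase, by 2.99 ± 0.24 and Slc7a11, the cystine carrier, by 2.76 ± 0.15. Gpx2, a glutathione peroxidase, rose by 4.99 ± 1.04 (adjusted p = 0.0252), a call kept in 2 of the 6 fits with an array left out (highest adjusted p = 0.0756). Among AhR targets 6 of 7 measured rose and none fell, against 9.05% higher and 11.3% lower over all genes tested. Nqo1, which is in both lists, did not pass in limma (1.85 ± 0.61, adjusted p = 0.0824), though its groups did not overlap. Cyp1a1, a cytochrome P450, had levels of 6.53, 5.45 and 6.29 in ADBAQ livers and -4.88, -7.21 and -7.27 in vehicle livers, of which 1 was well above background (adjusted p = 0.000908). Against the lowest detected signal of the vehicle arrays, Cyp1b1 was 20.2-fold higher and Ahrr, the AhR repressor, 5.02-fold higher. No vehicle liver was well above background for either, so neither ratio is a strict lower limit. Cyp1a1, Cyp1b1 and Ahrr were tested because of the ADBAQ arrays alone. Cyp1a2, a cytochrome P450 induced through AhR, had a log2 fold change of 3.88 ± 0.15, and Aldh3a1, an aldehyde dehydrogenase, one of 3.71 ± 0.57. The genes that supply NADPH, the cofactor of the family, had 3 of 12 higher and 1 lower, with Me1, malic enzyme, at 1.30 ± 0.21.

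Other enzymes of carbonyl metabolism included genes that rose and genes that fell. Carbonyl reductases of the short-chain dehydrogenase type had 1 of 13 higher and 3 lower, against 9.05% higher and 11.3% lower over all genes tested. Cbr1, a carbonyl reductase, rose by 1.24 ± 0.21 (adjusted p = 0.0144), while Hsd11b1, which regenerates active glucocorticoid, fell by 0.96 ± 0.14 on the log2 scale. Aldehyde dehydrogenases, read against the same shares of all genes, had 2 of 15 higher, Aldh3a1 and Aldh3b1 (1.52 ± 0.18), and 2 lower, Aldh2 (-0.51 ± 0.09) and Aldh8a1 (-0.34 ± 0.08), the last kept in 0 of the 6 fits with an array left out. None of the 6 genes in the alcohol dehydrogenase list, which includes the sorbitol dehydrogenase gene Sord, passed in limma, with 2 of them at an unadjusted p under 0.05 and 1 called with trend and robust variances.

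Genes of steroid and bile acid metabolism, the pathways of Akr1c and Akr1d members, had 1 of 21 higher and 11 lower, against 9.05% and 11.3% over all genes, with a median of -0.53. Slc27a5, a bile acid CoA ligase, fell by 2.17 ± 0.36 on the log2 scale (adjusted p = 0.0144). Acox2, of bile acid side chain shortening, fell by 1.88 ± 0.46 and Hsd3b1 and Hsd3b2, steroid dehydrogenases, by 1.63 ± 0.31 and 1.61 ± 0.30. Acox2 passed in 2 of the 6 fits with an array left out and Hsd3b1 and Hsd3b2 in 4 each. In vehicle rats 1 to 3 the levels of Hsd3b1 (2.46, 2.92 and 3.26) and of Hsd3b2 (2.32, 2.77 and 3.08) ran in parallel. Those of Hsd3b5 (7.79, 8.25 and 8.54), also called lower in limma (-1.47 ± 0.29, adjusted p = 0.0206), ran in parallel with them. The sequences of their probes were not examined, so these may not be separate falls, nor separate entries in the count of the list. Genes around Akr1a1 and Akr1b1 in polyol and glucuronate metabolism had 2 of 15 higher and 5 lower, against the same 9.05% and 11.3%, with a median of -0.41. Tkfc, a kinase of fructose metabolism, fell by 0.97 ± 0.11 on the log2 scale. Gulo, which makes the last step to vitamin C after Akr1a1, fell by 0.80 ± 0.12 on the log2 scale, while Ugdh, which makes UDP-glucuronate, rose by 0.80 ± 0.10 and Cryl1, an L-gulonate dehydrogenase, by 1.25 ± 0.16. Scaled to the spike-in controls, the medians of these lists and the values of Aldh2 (0.25) and Aldh8a1 (0.41) turned positive, while those of Gulo (-0.04), Tkfc (-0.21), Hsd11b1 (-0.21), Slc27a5 (-1.41), Acox2 (-1.13), Hsd3b1 (-0.87) and Hsd3b2 (-0.85) stayed negative. The summed hepatocyte markers were also lower in ADBAQ livers (4603 to 4939, against 6002 to 6535 in vehicle livers), though of the 6 that fell only Cps1 stayed below 0 (-0.45) when scaled to the spike-in controls, with Apob at 0.08, Fgb at 0.17 and Serpina1 at 0.19, and their part in these falls was not tested.

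**Figure D4:**
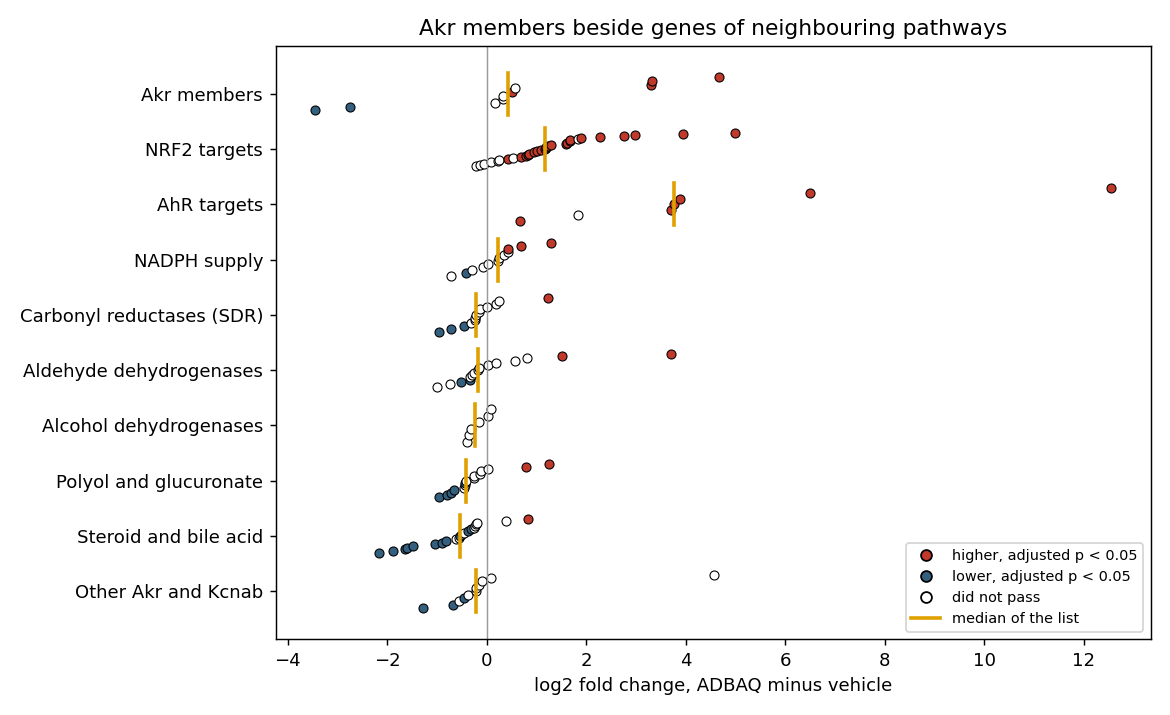
Log2 fold change, ADBAQ minus vehicle (x axis), of each measured gene in the Akr family (top row) and in 9 lists of related genes (y axis), filled where the test was passed (red higher, blue lower) and with a vertical bar at each list's median. The Akr members spread to both ends, the NRF2 and AhR targets lie mostly right of 0 and the steroid and bile acid genes mostly left of it.

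Of the other family genes on the array, Akr1e2 is a further aldo-keto reductase, next to Akr1c2 with no protein-coding gene between them. It fell by 0.45 ± 0.12 on the log2 scale (adjusted p = 0.0479) on its brightest probe, while its other tested probes gave -0.28 and -0.35 and did not pass (adjusted p = 0.150 and 0.105). No fit with an array left out kept this call, and the value was 0.31 when scaled to the spike-in controls. Kcnab1, a potassium channel subunit of the aldo-keto reductase fold, fell by 1.28 ± 0.16 (adjusted p = 0.00788), and its remaining 2 probes were not above background. In all, 3 of these 11 measured genes were lower and none higher, with 8 that did not pass, against 11.3% lower and 9.05% higher over all genes tested. Of the 3, which include Akr1c12, only Kcnab1 kept its call in every fit with an array left out. Outside the family, the genes whose levels over the 6 arrays were most like those of Akr1b8 were Lyrm7 and Hoxc5 (Pearson r = 0.998 each) and Cdipt (r = 0.995). Those most like Akr1c1 were Mab21l2 (r = 0.999), Kcng1 and Golga2 (r = 0.998 each). The 6 arrays fall into 2 groups, and r includes the difference between them.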

How the data were processed

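Liver RNA of 6 rats (3 ADBAQ, 3 vehicle) was measured on 1-colour Agilent arrays, and samples were grouped by the treatment in their labels. The processed signal is an intensity that was background-subtracted and detrended with Agilent Feature Extraction 10.7.1.1 on a design built on rn4, per the file headers. The series value table was deposited as a ratio of that signal to the array's 75th percentile, as its match to the scanner values shows; its columns have medians of 0.0930, 0.0971 and 0.0952 (ADBAQ) and 0.0967, 0.0970 and 0.0983 (vehicle), it is not log-transformed or centred on genes, and it served as an alternative.

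From the intensities, log2 of the processed signal relative to the array's 75th percentile was computed, and 1319 control spots were left out. A probe was tested if every array of either group (3 arrays each) flagged it as well above background. The test was limma's moderated test (lmFit, eBayes, two-sided; version 3.58.1 under R 4.3.3), with Benjamini-Hochberg adjustment over 38695 probes. RefSeq accessions named 27460 probes of 15284 genes, and 34197 probes stayed unnamed. A gene is represented by its probe of highest mean signal. Pairs of genes within a subfamily were compared by exact permutation tests. The fit was checked on simulated data. The alternatives were other background corrections, scalings, filters, variance moderation, the replicate number as a block, the series table, all probes of a gene averaged, and each array left out in turn. The files used here hold the median and not the mean spot signal, so normexp (offset 50) used the median.

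Members and gene lists were chosen with earlier results of these data known. The text names all 10 members, called genes among the other family members, and up to 4 called genes per list with the largest change and no overlap between groups. Nqo1 and Hsd3b5 are named in addition, because they bear on the count of a list. The number of arrays limits precision. Within a group, arrays correlated at 0.989 to 0.993.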

Additional observations from a re-analysis of the deposited data

How the results depend on the processing

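Of 162 recomputed fold changes of the 10 members, 140 kept their direction and side of the threshold, 10 newly passed, 12 no longer passed and 0 changed direction. The filter, variance and block settings leave the fold change of a probe as it was, so its direction could not change there. The same holds for averaged probes where a gene has 1 tested probe, and nearly so for the series table, which has the same scaling. Scaled to the spike-in controls, where the median of all genes was 0.72 (-0.04 otherwise), 8 members were called higher, and 8937 named genes were called higher and 187 lower; in the related gene lists 84 were higher and 5 lower, against 32 and 24 in the reported fit. That scaling put 98.0% of calls higher, against 44.5% in the reported fit, 34.5% with normexp (1395 higher, 2645 lower) and 32.4% with no filter on dim probes (1143 higher, 2387 lower). Same-numbered rats did not deviate together (correlations of -0.029, -0.020 and -0.005). With 3 arrays per group this cannot show whether they shared a step of the work, and the labels do not say what the number stands for. With the replicate number as a block, 3 members were higher and 1 lower (Akr1c2, adjusted p = 0.0498 in limma), Akr1c1 (0.0597) and Akr7a2 (0.0533) no longer passed, 429 named genes were higher and 553 lower, and in the lists 26 were higher and 11 lower. Leaving out 1 array at a time gave 4 to 5 members higher and 0 to 2 lower, 402 to 714 named genes higher and 520 to 851 lower, and 23 to 30 list genes higher and 10 to 15 lower; fewer arrays were then fitted. With normexp, which adds an offset of 50 to the signal, Akr1b10 was lost (0.38, adjusted p = 0.135 in limma). Its processed signal was 16.5 to 64.6 in ADBAQ livers and 2.41 to 2.64 in vehicle livers. The part of the offset in this loss was not tested. None of 63 recomputed pair differences changed direction, leaving out the median and spike-in scalings, which move both genes of a pair alike. The series table, which nearly does the same, is among the 63. For probes near background, such as Akr1b10, the size of a change is not measured.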
